A study of Glycine max with 12 samples.

Results

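A stretch of soybean chromosome 9 was followed by RNA-Seq in immature seed coats that either formed normally or cracked. The stretch runs in locus name order from Glyma09g30770 to Glyma09g31620 and holds 92 gene models of 86 loci, out of 78773 models in the whole series. It was chosen by the defective-standard contrast itself, because it holds Glyma09g31370 and Glyma09g31430, which were lower in the defective library of all 6 isoline pairs. The size of that contrast in the members is therefore given as a description with no test. Most members did not share a reduction in all 6 pairs, as the counts below show, and the stretch is called here the chromosome 9 window after its position only.

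The net pattern mutation, abbreviated Def, leaves all layers of the seed coat ruptured. It had been moved by backcrossing into cultivar Clark, which is black seeded (*i R T*), and into cultivar Harosoy, which is yellow seeded (*I r t*). The 4 lines are Clark standard (*i R T*), Clark defective (*i R T* Def), Harosoy standard (*I r t*) and Harosoy defective (*I r t* Def). Each line was sampled at fresh seed weights of 50–100, 100–200 and 400–500 mg, and 1 library was made per line and stage from pooled seeds, so that 12 libraries form 6 pairs of a standard and a defective library. Replicate libraries were not made, so that the spread within a line and stage is unknown. Reads of 75 bp came from the GAII for the 100–200 mg stage and reads of 100 bp from the HiSeq 2000 for the other stages, and the middle stage and its platform cannot be told apart.

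Backcrossing with selection carries along, with the chosen locus, a linked segment of the donor chromosome, so that isolines can differ at neighbouring genes as well. The chromosomal position of the Def locus is not given in the sources used here. Protein kinases transfer phosphate groups to other proteins and act in many signalling pathways, among them those that sense the cell wall. Beta-glucosidases release glucose from glycosides, and members of this enzyme family in plants act on cell wall oligosaccharides, stored hormones and phenolic compounds. In the window, names were given by the study for only 4 members, namely Glyma09g30910.1 and Glyma09g30920.1 as beta-glucosidase 44 and Glyma09g31370.1 and Glyma09g31430.1 as putative protein kinases. The other members are described by their model number.

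The libraries held 47.5 to 113 M hits on gene models, where a hit is an alignment of a read to a model. Expression is given as RPKM, reads per kilobase of model and scaled to the mapped reads of its library. PRP1 (Glyma09g12200.1), a proline-rich cell wall protein of young seed coats, was at 8714 to 12890 RPKM in the 50–100 mg libraries and at 12.2 to 43.1 RPKM in the 400–500 mg libraries. PRP2 (Glyma09g12260.1), its counterpart in older coats, was at 4.12 to 24.1 RPKM and at 1313 to 4584 RPKM in the same stages. The 13 models of glycinin and beta-conglycinin, storage proteins of the cotyledon, summed to 32.7 to 1219 RPKM, and none of them was at 0 in any library. Their sum is given beside the results that it touches. In such bulk tissue, fewer cells of a type and less RNA per cell cannot be told apart.

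Much of the window was silent or weakly expressed in the seed coat. At 0 in all 12 libraries were 10 of the 92 members, and 29 reached 5 RPKM in at least 1 library. A level of 1 RPKM or more in 2 or more libraries was found for 48 members of 44 loci, against 46237 of the 78773 models in the series. Only these models entered the counts and tests below unless stated. A read could be placed on up to 25 models, so that splice models and close copies are not independent measurements.

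The putative protein kinase models Glyma09g31370.1 and Glyma09g31430.1 were the members most reduced in the defective seed coats. In Clark, Glyma09g31370.1 was at 1.93, 3.84 and 10.1 RPKM in the standard libraries of 50–100, 100–200 and 400–500 mg and at 0.282, 0.329 and 0.798 RPKM in the defective libraries. In Harosoy it was at 1.31, 6.65 and 2.80 RPKM in the standard libraries and at 0.180, 0.156 and 0.185 RPKM in the defective libraries. All 6 standard libraries were above all 6 defective libraries, and the lowest standard value exceeded the highest defective value. The standard lines differed in the stage of their peak, which was 400–500 mg in Clark and 100–200 mg in Harosoy.

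The hits behind these values ranged from 90 to 720 in the standard and from 9 to 35 in the defective libraries for a model of 923 bases. The standard library exceeded the defective library of Clark 6.84-fold at 50–100 mg (95% exact interval 4.54 to 10.6), 11.7-fold at 100–200 mg (7.62 to 18.9) and 12.7-fold at 400–500 mg (9.02 to 18.3). In Harosoy the folds were 7.31 (4.07 to 14.3), 42.5 (22.2 to 93.7) and 15.1 (8.04 to 32.0). These intervals cover counting error only. The mean log2 ratio of defective to standard on RPKM + 1 was -1.84 ± 0.72 (SD, n = 6 pairs).

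Glyma09g31430.1, which lies 6 loci from Glyma09g31370 in name order, followed it closely. Its RPKM values in Clark standard were 1.70, 3.72 and 8.61 in the 3 stages, against 0.246, 0.338 and 0.620 in Clark defective. In Harosoy standard they were 1.24, 7.07 and 2.53, against 0.175, 0.189 and 0.151 in Harosoy defective. Again no defective library reached any standard library. The folds were 6.90, 11.01 and 13.9 in the Clark pairs and 7.09, 37.4 and 16.8 in the Harosoy pairs, and the mean log2 ratio was -1.80 ± 0.74 (SD, n = 6 pairs). The RPKM of Glyma09g31370.1 divided by that of Glyma09g31430.1 stayed between 0.828 and 1.29 in the 12 libraries. As reads could count on several models, transcripts of these models cannot be told apart here, and they may hold shared reads rather than 2 independent measurements.

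**Figure D1:**
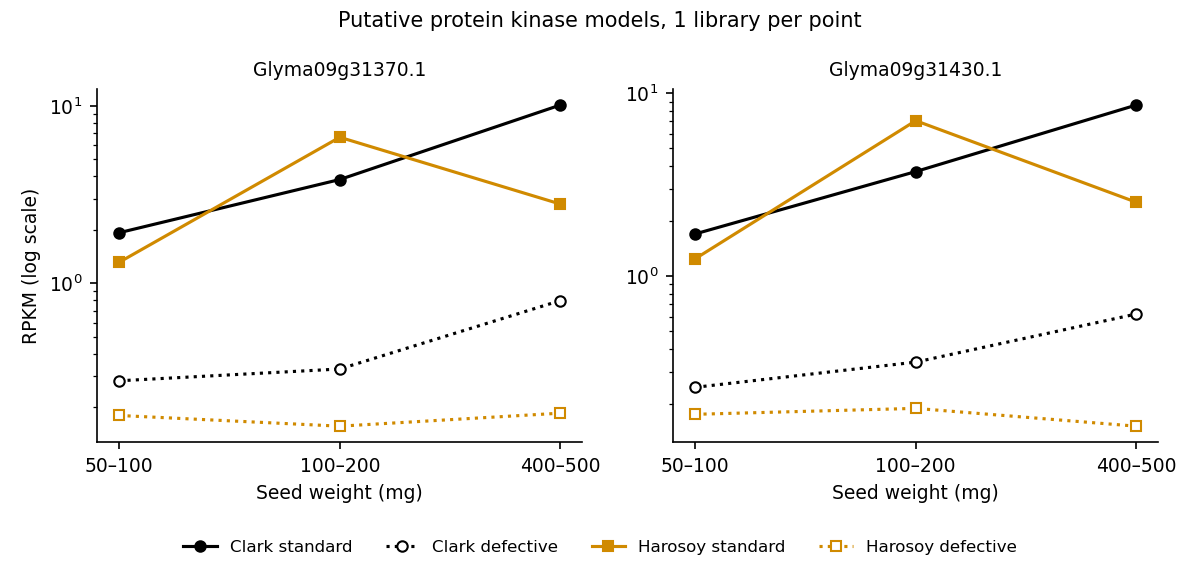
RPKM on a log scale of the putative protein kinase models Glyma09g31370.1 and Glyma09g31430.1 against seed weight, with 1 library per point, filled for standard and open for defective lines. All standard points lie above all defective points, and the largest gap is in Harosoy at 100–200 mg, where Glyma09g31370.1 was at 6.65 and 0.156 RPKM.

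The storage protein sum was 128 and 94.6 RPKM in Clark standard and defective at 50–100 mg, 114.3 and 32.7 RPKM at 100–200 mg, and 577 and 312 RPKM at 400–500 mg. In Harosoy it was 98.9 and 48.4 RPKM, 536 and 573 RPKM, and 1219 and 839 RPKM in the same order. The sum was thus lower in the defective library of 5 pairs and higher in that of Harosoy at 100–200 mg, but it hides members with opposite differences. In this Harosoy pair, standard before defective, the glycinin Glyma03g32030.1 was at 0.756 and 61.5 RPKM and the beta-conglycinin Glyma10g39150.1 at 301 and 90.4 RPKM. In Clark at 400–500 mg they were at 11.4 and 20.1 RPKM and at 315 and 124 RPKM. The part of cotyledon tissue in the differences of the kinase models was not tested.

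A lower value in the defective library of every pair, of whatever size, was shared by 10 of the 48 members, while 0 members were higher in all 6 pairs. Over all 46237 models, 2.26% were lower and 1.29% were higher in all 6 pairs, and because this contrast chose the window nothing is read from the comparison. The 10 members were Glyma09g30770.1, Glyma09g30780.1, Glyma09g31060.1, Glyma09g31280.1, Glyma09g31300.1, Glyma09g31330.1, Glyma09g31370.1, Glyma09g31380.1, Glyma09g31430.1 and Glyma09g31620.1. Some of these differences were small or rested on few hits. Glyma09g31300.1 had a fold of 1.01 in Clark at 100–200 mg. In Harosoy, standard before defective, it had 6 and 5 hits at 50–100 mg and 2 and 0 hits at 400–500 mg. At least 1.5-fold lower in every pair were 3 members, the kinase models and Glyma09g31280.1, as were 11 models or 0.0238% of the series. At least 5-fold lower in every pair were only the kinase models among the members, and 3 models or 0.00649% of the series, the third being Glyma09g31850.1 outside the window.

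The 48 members as a set, the kinase models included, leaned only slightly towards lower values. Lower in the defective library were 27, 24 and 29 of the 48 members in the Clark pairs of 50–100, 100–200 and 400–500 mg and 33, 27 and 37 in the Harosoy pairs. Of all 46237 models, 19758, 24238 and 23632 were lower in the Clark pairs and 26516, 23121 and 27832 in the Harosoy pairs. Of the 48 members, 5 were lower in 5 pairs, 13 were lower in 4 pairs, 6 in 3 pairs, 8 in 2 pairs and 6 in 1 pair. The median log2 ratio of defective to standard over the members was -0.04, 0.00 and -0.14 in the Clark pairs of 50–100, 100–200 and 400–500 mg and -0.11, -0.08 and -0.14 in the Harosoy pairs. Over all models it was 0.03, -0.02 and -0.01 in Clark and -0.02, 0.00 and -0.07 in Harosoy. In stretches of like length on both sides of the window, 5 of 72 models before it and 2 of 69 models after it were lower in all 6 pairs. These were 3 loci before and 2 loci after, while the 10 such members of the window were 10 loci.

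The values at the ends of the window are given for the loci on either side of them. Just inside, Glyma09g30770.1 was at 0.304 to 2.67 RPKM and had log2 ratios of -0.63 to -0.27, and just outside, Glyma09g30760.1 was at 3.04 to 8.97 RPKM and lower in 5 of 6 pairs. At the other end, Glyma09g31620.1 was at 0.962 to 3.43 RPKM with log2 ratios of -0.80 to -0.20, and Glyma09g31630.1, just outside, was at or below 0.0522 RPKM throughout.

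**Figure D2:**
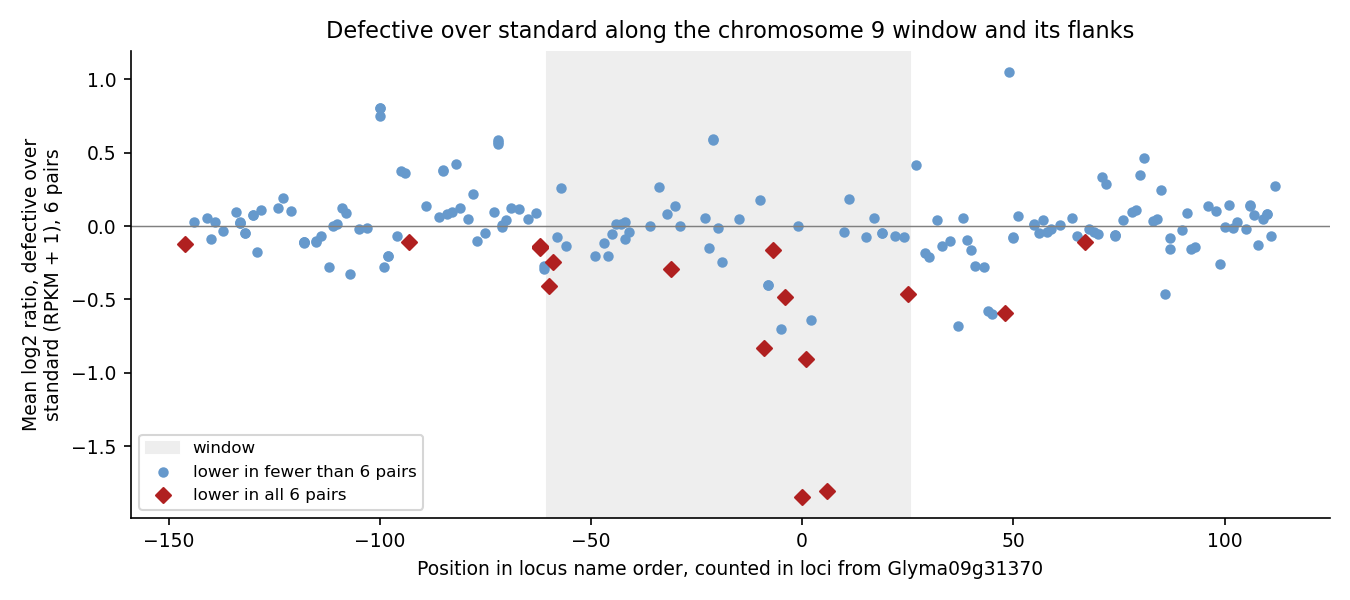
Mean log2 ratio of defective to standard over 6 pairs (RPKM + 1) against position in locus name order, counted in loci from Glyma09g31370, for models that reached 1 RPKM in 2 or more libraries. The window is shaded, red diamonds mark models lower in all 6 pairs, and the kinase models lie lowest at -1.84 and -1.80, while most other members lie near 0.

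Of the 10 members lower in all 6 pairs, 6 lay between Glyma09g31280 and Glyma09g31440, bounds chosen after the values were seen. They were 6 of 11 members there, against 3 of 28 in the stretch before and 1 of 9 in the stretch after. Over all models the share was 2.26%. As the 6 include the kinase models that chose the window, nothing is read from this comparison. In Harosoy the median log2 ratio of these 11 members was -0.23 at 50–100 mg, -1.52 at 100–200 mg and -1.13 at 400–500 mg. In Clark it was -0.18, -0.01 and -0.36. This median was thus lowest in the later Harosoy pairs. In the 400–500 mg pair of either background 11 of 11 members were lower. Of all 46237 models, 23632 were lower in that pair of Clark and 27832 in that of Harosoy. The 11 include the kinase models, chosen by this contrast, and both splice models of Glyma09g31290.

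Glyma09g31280.1 was reduced in every pair, and most at 100–200 mg in both backgrounds. It was at 2.38, 3.26 and 6.20 RPKM in Clark standard and at 1.34, 1.14 and 3.31 RPKM in Clark defective. In Harosoy standard it was at 2.79, 4.48 and 6.16 RPKM and in Harosoy defective at 1.24, 1.41 and 3.21 RPKM. All 4 lines had their highest value at 400–500 mg, and the standard library was the higher in each pair, by 1.78-fold to 3.17-fold, with a mean log2 ratio of -0.83 ± 0.23 (SD, n = 6 pairs). The folds at 100–200 mg were 2.85 (95% exact interval 2.44 to 3.34) in Clark and 3.17 (2.72 to 3.72) in Harosoy. At 50–100 mg they were 1.78 (1.55 to 2.05) and 2.25 (1.92 to 2.64), and at 400–500 mg 1.88 (1.67 to 2.11) and 1.92 (1.72 to 2.15). The hits were 197 to 1137 per library for its 2375 bases.

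Glyma09g31380.1, the locus next to Glyma09g31370, differed little between isolines in the youngest coats and more in the older ones. In Clark standard it was at 0.997, 0.739 and 3.52 RPKM and in Clark defective at 0.866, 0.0803 and 1.06 RPKM. In Harosoy standard it was at 0.576, 6.31 and 2.67 RPKM and in Harosoy defective at 0.446, 0.530 and 0.664 RPKM. The 50–100 mg folds of 1.15 (95% exact interval 0.744 to 1.77) in Clark and 1.29 (0.661 to 2.55) in Harosoy lay within counting error. At 100–200 mg the folds were 9.20 (2.94 to 46.4) on 43 and 3 hits in Clark and 11.9 (7.27 to 20.8) on 220 and 17 hits in Harosoy. At 400–500 mg they were 3.31 (2.17 to 5.25) and 4.02 (2.48 to 6.85).

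Glyma09g31440.1, next to Glyma09g31430, reached 5.56 RPKM in Harosoy standard at 100–200 mg, against 0.465 RPKM in Harosoy defective, a fold of 11.96 (5.85 to 28.4) on 104 and 8 hits. It stayed at or below 0.751 RPKM in the other 10 libraries, so that it was not among the 48 members. It was lower in the defective library of all 6 pairs, but on 2 to 23 hits outside that pair. Glyma09g31330.1 was at 2.69 to 11.3 RPKM in the standard and at 1.72 to 7.87 RPKM in the defective libraries. Its folds were 1.04 to 1.20 in the Clark pairs and 1.14, 3.43 and 2.28 in the Harosoy pairs, and the ranges of the groups overlapped. The Clark folds of 1.04 (0.959 to 1.14) at 50–100 mg and 1.09 (0.995 to 1.18) at 100–200 mg lay within counting error. Glyma09g31060.1 was at 14.7 to 17.6 RPKM in the standard and at 10.2 to 16.6 RPKM in the defective libraries, with folds of 1.05 to 1.66.

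Several loci around the kinase models had their highest value of the 12 libraries in Harosoy standard at 100–200 mg. Of the 11 members between Glyma09g31280 and Glyma09g31440, 7 had their highest value in that library, against 3 of 28 before and 0 of 9 after. The 7 include both splice models of Glyma09g31290, and the bounds were chosen after the values were seen. The share of all models with their highest value in that library was not counted, so nothing is read from these counts. Glyma09g31320.1 was at 15.6 RPKM there and at 1.11 to 4.55 RPKM in the other 11 libraries. Glyma09g31390.1 was at 11.1 RPKM there and at 0.574 to 2.51 RPKM elsewhere. These models, named after their values were seen, kept an RPKM ratio of 1.41 to 2.21 in the 12 libraries, so that shared reads cannot be told apart from shared expression. Neither was lower in the Clark 100–200 mg pair, where Glyma09g31320.1 was at 3.46 and 3.86 RPKM in standard and defective.

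The splice models of Glyma09g31290 had the same peak at a higher level. Glyma09g31290.1 was at 39.4 RPKM in Harosoy standard and 18.6 RPKM in Harosoy defective at 100–200 mg, and at 22.6 and 8.72 RPKM at 400–500 mg. In the Clark pairs, standard before defective, it was at 20.1 and 24.3, 17.2 and 18.7, and 35.0 and 29.5 RPKM in the 3 stages. It was lower in the defective library of 4 pairs, and the second splice model, Glyma09g31290.2, likewise of 4.

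Beside these peaks stand the markers of coat age. In the 100–200 mg pair of Harosoy, PRP1 (Glyma09g12200.1) was at 162 RPKM in the standard and 5890 RPKM in the defective library, and PRP2 (Glyma09g12260.1) at 3438 and 8.68 RPKM. In the Clark pair of the same stage PRP1 (Glyma09g12200.1) was at 874 and 6181 RPKM and PRP2 (Glyma09g12260.1) at 809 and 174 RPKM. The defective libraries of this stage thus held the higher PRP1 and the lower PRP2 values in both backgrounds. The part of coat age within the weight class in the peak was not tested.

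**Figure D3:**
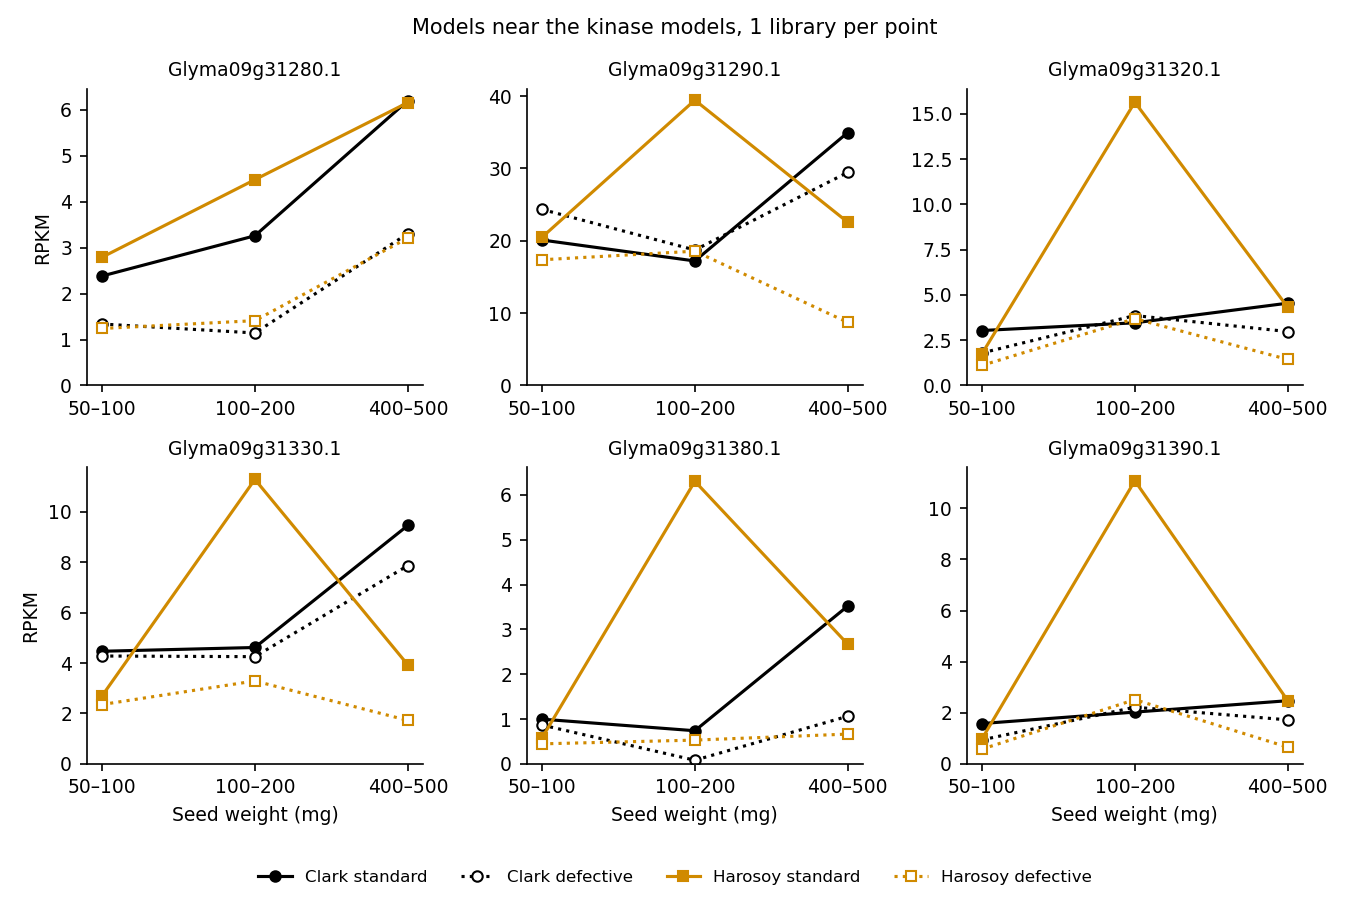
RPKM of 6 models between Glyma09g31280 and Glyma09g31390 against seed weight, with 1 library per point, filled for standard and open for defective lines. Glyma09g31290.1, Glyma09g31320.1, Glyma09g31330.1, Glyma09g31380.1 and Glyma09g31390.1 share a peak in Harosoy standard at 100–200 mg, while Glyma09g31280.1 was highest at 400–500 mg in all 4 lines.

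The beta-glucosidase 44 models were the most abundant transcripts of the window and did not follow the kinase models. Glyma09g30910.1 was at 515, 296 and 95.8 RPKM in Clark standard and at 370, 101 and 80.0 RPKM in Harosoy standard over the 3 stages. In Harosoy defective it was at 321, 151 and 78.0 RPKM. In each of these lines the level was lower at each later stage. In Clark defective it was at 107, 262 and 175 RPKM, with the lowest value in the youngest coats.

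The isoline difference of Glyma09g30910.1 accordingly changed sign within Clark. Its log2 ratio of defective to standard was -2.25 at 50–100 mg, -0.18 at 100–200 mg and 0.86 at 400–500 mg. In Harosoy it was -0.20, 0.58 and -0.04. Glyma09g30920.1 was at 406, 290 and 104 RPKM in Clark standard and at 94.4, 362 and 218 RPKM in Clark defective. In Harosoy it was at 271, 105 and 62.7 RPKM in standard and at 241, 148 and 66.4 RPKM in defective. The RPKM ratio between these adjacent models stayed between 0.723 and 1.37, and their reads may be shared as well.

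**Figure D4:**
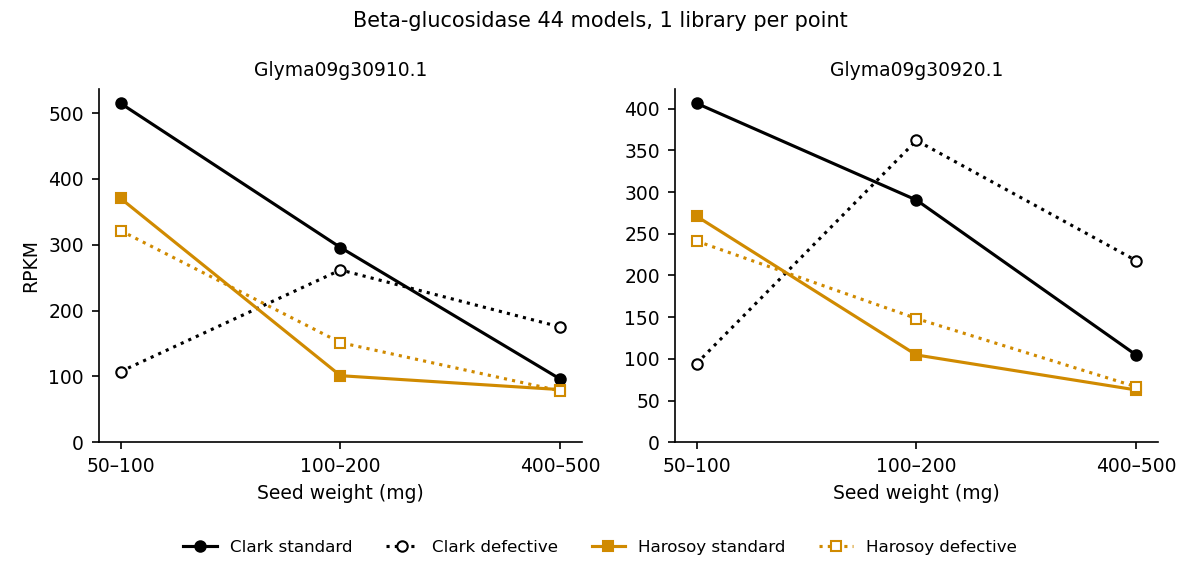
RPKM of the beta-glucosidase 44 models Glyma09g30910.1 and Glyma09g30920.1 against seed weight, with 1 library per point, filled for standard and open for defective lines. Clark defective is lowest of the lines at 50–100 mg, at 107 and 94.4 RPKM, and highest at 400–500 mg, at 175 and 218 RPKM.

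The change over seed coat development was independent of the contrast that chose the window and was tested with limma over all 12 libraries, with line and stage as terms. The 4 lines are the only repetition of a stage. Between 50–100 and 400–500 mg, 8 of the 48 members rose and 11 fell at an adjusted p below the threshold of 0.05. Of all models, 22.1% rose and 28.2% fell, and the counts of members do not stand above this background. After quantile normalization of the libraries the split among the members was 13 that rose and 7 that fell. In the flanking stretches 24 of 141 models rose and 48 fell.

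The largest rise among members that held whichever line was left out was that of Glyma09g31170.1, at 1.18 ± 0.21 (SE) on the log2 scale with an adjusted p of 0.0018. It went from 25.1, 24.9, 20.9 and 17.6 RPKM in Clark standard, Clark defective, Harosoy standard and Harosoy defective at 50–100 mg to 49.7, 35.3, 53.6 and 71.3 RPKM at 400–500 mg. All 4 late libraries were above all 4 early ones. Glyma09g31280.1 rose by 0.95 ± 0.12 (adjusted p 3.0e-04), by 0.88 to 1.09 in each of the 4 lines, so that its rise was close to the same in standard and defective coats. Glyma09g31540.1 rose by 0.61 ± 0.08 (adjusted p 2.8e-04), from 6.27 to 7.29 RPKM early to 10.5 to 11.3 RPKM late, and Glyma09g30810.1 by 0.50 ± 0.10 (adjusted p 0.0036). All were higher late in 4 of 4 lines.

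Glyma09g31160.2 had the largest estimate, 1.26 ± 0.47, at an adjusted p of 0.0498, but on the strength of few libraries. It was at 2.18 RPKM early and 31.3 RPKM late in Harosoy defective, and at 2.55 and 6.08 RPKM in Clark standard, 2.12 and 5.14 RPKM in Harosoy standard, and 4.23 and 3.37 RPKM in Clark defective. It was higher late in 3 of 4 lines, and of the 4 fits without a line it passed only in that without Clark defective. The other splice model, Glyma09g31160.1, had nearly the same estimate, 1.25 ± 0.47, and did not pass in limma (adjusted p 0.0517).

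Among the falls, Glyma09g31220.1 was at 0.924 to 1.26 RPKM in the 4 early libraries and at 0 to 0.0152 RPKM in the late ones. It reached 1 RPKM only in early libraries, so that it entered the test through the stage where it was high, and its test is not given, although it is among the 11. Glyma09g31270.1 was at 0.4997 to 1.03 RPKM early and at most 0.0941 RPKM late. It reached 1 RPKM only in Harosoy standard at 50–100 mg and Harosoy defective at 100–200 mg. Its entry thus also needed an early library, and its test is not given either, although it too is among the 11. Both Glyma09g31220.1 and Glyma09g31270.1 were close to 0 in the oldest coats of all 4 lines. Glyma09g31030.1 had a log2 difference of -0.87 ± 0.24 (adjusted p 0.015) and Glyma09g30930.1 of -0.71 ± 0.18 (adjusted p 0.0097), both lower in 4 of 4 lines, but each passed in only 2 of the 4 fits without a line.

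The beta-glucosidase model Glyma09g30910.1 had the largest fall, -1.49 ± 0.50 (adjusted p 0.036), with the lines at -2.41 to 0.70. The exception was Clark defective, the line that rose, and of the 4 fits without a line only that without Clark defective kept the call. Glyma09g30920.1 did not pass (-1.17 ± 0.53, adjusted p 0.094). The storage protein sum was also higher late than early in each line, by the values given above, and its part in these changes was not tested.

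The kinase models did not pass the test of stage. Glyma09g31370.1 had a log2 difference of 0.78 ± 0.36 (adjusted p 0.099) and Glyma09g31430.1 of 0.71 ± 0.36 (adjusted p 0.13). The single lines ranged from 0.01 to 1.92 for Glyma09g31370.1 and from -0.03 to 1.83 for Glyma09g31430.1, with the highest values in Clark standard.

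**Figure D5:**
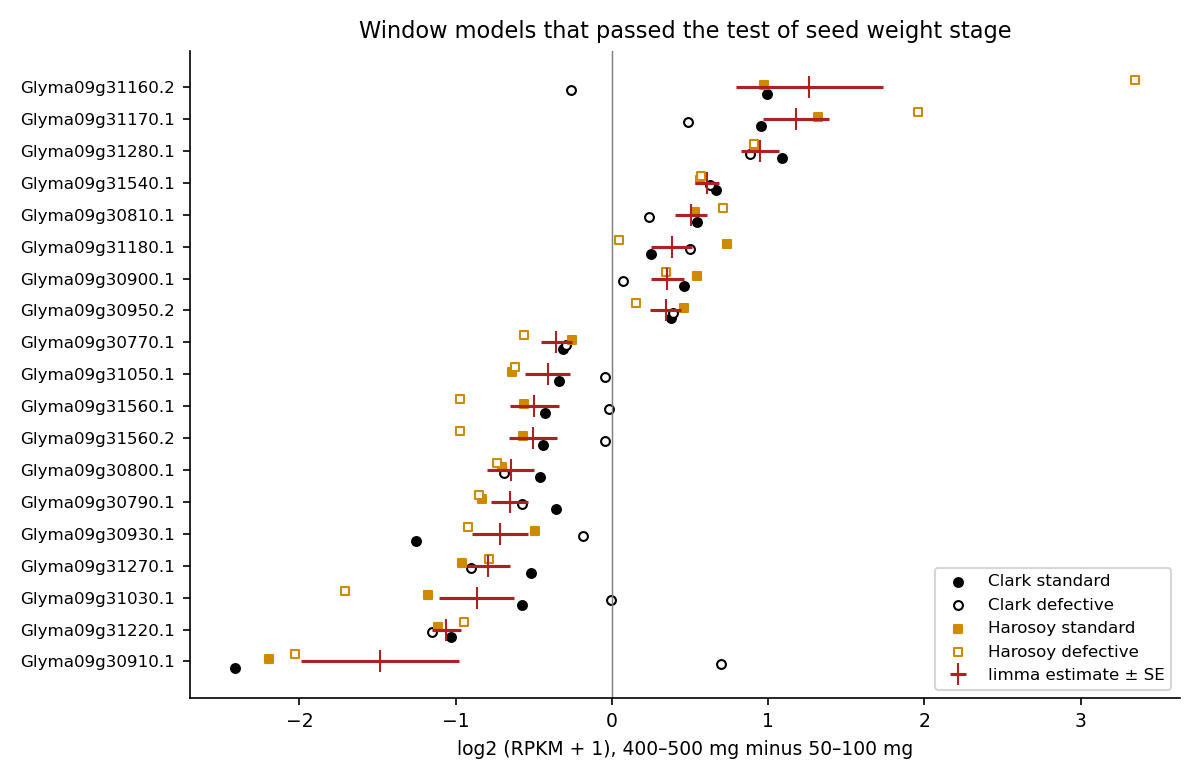
Change in log2 (RPKM + 1) from 50–100 to 400–500 mg for the 19 members that passed the test of stage, with 1 point per line and the limma estimate ± SE in red. The 4 lines lie close together for Glyma09g31540.1 and Glyma09g31280.1, and Clark defective stands apart for Glyma09g30910.1.

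The Clark and Harosoy backgrounds were compared in the same limma fit, in which both backgrounds hold a standard and a defective line. There 2 of the 48 members were higher in Clark and 5 were lower, against 10.6% and 9.94% of all models. The stages of a line serve here as its repetition and are not replicates, so these p-values are likely too small. Both splice models of Glyma09g31560 were higher in Clark in 6 of 6 matched libraries, with log2 differences of 0.56 ± 0.13 (adjusted p 0.019) for Glyma09g31560.1 and 0.54 ± 0.13 (adjusted p 0.021) for Glyma09g31560.2. Glyma09g31560.1 was at 46.0 to 62.4 RPKM in the Clark and at 26.9 to 53.8 RPKM in the Harosoy libraries, so that the ranges overlapped. It also fell with stage, by 0.50 on the log2 scale (adjusted p 0.027), a call kept in 1 of the 4 fits without a line.

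Lower in Clark in 6 of 6 matched libraries were Glyma09g31620.1 (-0.43 ± 0.11, adjusted p 0.026), Glyma09g31520.1 (-0.43 ± 0.10, adjusted p 0.019) and Glyma09g31480.1 (-0.40 ± 0.12, adjusted p 0.043). They lie near the end of the window with the larger numbers. Each of them lost its call in every fit without a stage. The Glyma09g31560 models kept theirs only in the fit without the 50–100 mg libraries. Without the 100–200 mg libraries 0 members passed in limma, with 12 at an unadjusted p under 0.05, and without the 400–500 mg libraries 0 passed, with 7 at an unadjusted p under 0.05. Of all models, 0.532% and 0.614% passed in these fits. In the main fit the kinase models did not pass (0.36 ± 0.29 with an adjusted p of 0.42 for Glyma09g31370.1, and 0.28 ± 0.30 with an adjusted p of 0.53 for Glyma09g31430.1).

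The other members among the 10 most abundant did not separate the lines. Glyma09g31070.1 was at 14.1 to 24.5 RPKM in 11 libraries and at 30.0 RPKM in Clark defective at 50–100 mg, against 16.96 RPKM in its standard. Glyma09g30800.1 was at 7.07 to 16.3 RPKM and fell with stage by 0.65 on the log2 scale (adjusted p 0.0068) in each of the 4 lines.

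Outside the window, the models whose pattern over the 12 libraries was most like that of Glyma09g31370.1 were the 4 splice models of Glyma12g01010 and Glyma04g38640.1, an amino acid permease AAP3, out of the 31175 models that reached 5 RPKM in at least 1 library. Models with lower levels were not compared. Pearson's r of log2(RPKM + 1) was 0.88, 0.88, 0.87 and 0.87 for Glyma12g01010.2, Glyma12g01010.1, Glyma12g01010.4 and Glyma12g01010.3 and 0.87 for Glyma04g38640.1. The points share libraries and lines, and the likeness includes the contrast that chose the window. Glyma04g38640.1 was at 12.2 to 62.5 RPKM in the standard and at 1.60 to 7.09 RPKM in the defective libraries, without overlap. Glyma12g01010.2 was at 10.9 to 15.9 RPKM and at 9.62 to 12.7 RPKM, lower in all 6 pairs by a small amount. Within the window r was 0.998 for Glyma09g31430.1, 0.82 for Glyma09g31380.1, 0.81 for Glyma09g31280.1 and 0.73 for Glyma09g31330.1.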

How the data were processed

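Total RNA was extracted by a phenol-chloroform method, modified for the pigmented Clark coats, from seed coats of greenhouse plants. The authors aligned the reads to 78773 Glyma cDNA models with Bowtie, allowing 3 mismatches and 25 alignments per read, and deposited RPKM values, each library scaled on its own. The Bowtie version and model coordinates are not given in the sources used here, and the annotation held here pairs with none of the model names. An unnamed column of 1 table holds notes and no values. No columns with the authors' fold changes or p-values were used.

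Hits were recovered from the RPKM steps: library totals were found from 660 models, of which 98.3% gave whole lengths within 0.05 bases, and hits for 82 of the 92 members. Log2 ratios used a pseudocount of 1 RPKM. Models below 1 RPKM in more than 10 libraries were left out of the tests. Limma with a trend was fitted to log2(RPKM + 1) of all 46237 such models, with line and stage as terms and 6 residual degrees of freedom, and p-values were adjusted after Benjamini and Hochberg. A fold change on this scale understates the change of models with low values. Pairs were not tested one by one, for want of replicate libraries. On simulated data with 200 changed models, the test of stage found 63 of 100 changes of 1 and 85 of 100 changes of 2 on the log2 scale and called 7 unchanged models. The changed models were drawn only from those whose mean log2(RPKM + 1) was above the level of 5 RPKM. No other model was given a change with stage. These rates therefore do not cover members below that level, the kinase models among them. Intervals of folds are exact (Clopper-Pearson) at the 95% level.

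The members and lists were chosen with earlier results of these data known. Named are the kinase models, members in the study's tables, members at 5 RPKM or more in a library and lower or higher in all 6 pairs, the 10 with the highest mean, the 5 largest rises and falls with stage and the 3 largest background differences in each direction that passed, the loci at both ends, and the 5 models outside most like Glyma09g31370.1. Others were named after their values were seen. Alternatives were a pseudocount of 0.1, other filters, quantile normalization, no trend, 1 model per locus, a 1.5-fold minimum, leaving out lines, stages or pairs, and the standard lines only. Python 3.11.15 with numpy 2.4.6, pandas 2.3.3, scipy 1.17.1 and matplotlib 3.10.9 and R 4.3.3 with limma 3.58.1 were used.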

Additional observations from a re-analysis of the deposited data

Results flagged for a closer look

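Isoline differences of 4 members had opposite signs in the compared groups of pairs, and none of these differences was tested. Glyma09g30950.2 was higher in the defective library of the 3 Clark pairs (mean log2 ratio 0.16) and lower in that of the 3 Harosoy pairs (-0.33), a difference of 0.49 on the log2 scale, with all values between 1.97 and 3.88 RPKM.

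The beta-glucosidase model Glyma09g30920.1 was lower in the defective library of both 50–100 mg pairs (mean log2 ratio -1.13) and higher in that of both 400–500 mg pairs (0.57), a difference of 1.70. Most of it came from Clark, where the values were 406 and 94.4 RPKM early and 104 and 218 RPKM late in standard and defective. Smaller differences between late and early pairs were found for Glyma09g30960.1 (-0.17) and Glyma09g31470.1 (0.063). Each of these signs rests on 2 pairs per stage.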

How the results depend on the processing

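For the kinase models the alternatives were a smaller pseudocount and leaving out each pair in turn. As all 6 pairs were lower by the rule that chose the window, these could change the size but not the direction. With a pseudocount of 0.1 RPKM the mean log2 ratio over 6 pairs was -3.25 for Glyma09g31370.1 and -3.23 for Glyma09g31430.1, a shift that follows from their low values in the defective libraries. Without each pair in turn it lay between -2.02 and -1.67 and between -1.98 and -1.61.

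The count of 10 members lower in all 6 pairs was 12 with no filter, 10 after quantile normalization and 10 with 1 model per locus. It was 5 of 23 members that reached 5 RPKM in 2 or more libraries and 3 with a minimum of 1.5-fold. In the 4 pairs without the 100–200 mg libraries, an alternative chosen after seeing the data, 15 members were lower, as were 7.07% of all models under this easier criterion.

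The count of 19 members that changed with stage was 18 to 23 with the other pseudocount, no filter, quantile normalization and no trend, 17 with 1 model per locus and 16 without the 100–200 mg libraries. It was 8 of 23 members with the higher filter and 9 in the standard lines only. Of all models, 53.7% passed with the higher filter and 25.1% in the standard lines only, against 50.3% in the main fit. Without each line in turn the count was 9 to 18: 9 without Clark standard, 10 without Harosoy standard, 10 without Harosoy defective and 18 without Clark defective. In the same order, 37.1%, 42.6%, 39.2% and 44.2% of all models passed. In all 4 of these fits 8 members passed. The count of 7 members that differed between backgrounds was 6 or 7 under the other settings, 3 with the higher filter, 0 in the standard lines only (limma, with 6 at an unadjusted p under 0.05), and 0 to 4 without each stage in turn. In the standard lines only, 2 of 46237 models passed the test of background. Of all models, 23.6% passed it with the higher filter and 0.532% to 7.87% without each stage in turn, against 20.5% in the main fit.

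The labels give no replicate numbers, so that the only blocks were line in the test of stage and stage in the test of background. The contrast within the 6 isoline pairs was not tested, since it chose the window. The depth limits the defective values of the kinase models, which rest on 9 to 35 hits. A line is 1 isoline, and stage and platform cannot be told apart at 100–200 mg.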

Other observations

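Glyma09g31850.1, which lies 48 loci from Glyma09g31370 in name order and outside the window, was, of the 46237 models, the only model beside the kinase models that was at least 5-fold lower in every pair. It was at 0.0665, 1.38 and 0.397 RPKM in Clark standard and at 0.1001, 1.47 and 0.223 RPKM in Harosoy standard over the 3 stages, and was listed at 0 in all 6 defective libraries. Against a floor of 3 hits per library its standard values were at least 72.1-fold higher in Clark and at least 65.9-fold higher in Harosoy at 100–200 mg, on 337 and 215 hits.

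Of the 11 models at least 1.5-fold lower in the defective library of every pair, 4 are on chromosome 9, namely Glyma09g31280.1, Glyma09g31370.1, Glyma09g31430.1 and Glyma09g31850.1. The other 7 are on chromosomes 1, 4, 5, 10, 12, 14 and 17. Glyma12g34160.1 was at 2.34 to 158 RPKM in the standard and at 0.375 to 30.7 RPKM in the defective libraries, with its highest value in Harosoy standard at 100–200 mg. These models were named after their values were seen.

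Within the window, Glyma09g31310.1 had 1 to 4 hits in each standard library and 0 in each defective library, too few to give a fold. Glyma09g31160.1 was at 31.5 RPKM in Harosoy defective at 400–500 mg and at 1.18 to 6.16 RPKM in the other 11 libraries.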
